A study of Mus musculus with 6 samples.

Results

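The annexins are a family of calcium-dependent proteins, and their transcripts were followed here in mouse embryonic stem cells without microRNAs that were given back those of the miR-290 cluster. The members were all probe sets, among the 45101 on the array, whose only annotated gene symbol was Anxa1 to Anxa9 or Anxa11, 10 genes in all. These were 20 probe sets for 9 of the 10 genes, of 18194 genes that the array names singly. Anxa11 had no value, because its 1 probe set was annotated to other genes as well. The family was chosen by the differences between mimic and control arrays, because Anxa1, Anxa2 and Anxa3 were lower with the mimics. These differences are therefore given for the members as a description. No p-value of a member is printed here. Calls of members, single or counted, say only on which side of a threshold a value fell, and are read as no support.

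The cells were the 27H10 line (27H in the sample titles), a single mouse embryonic stem cell line deficient in Dicer (Dicer -/-), the enzyme that cuts microRNA precursors into mature microRNAs. All 6 samples carried that deficiency and were kept undifferentiated, and RNA was taken 24 h after the transfection. The control group of 3 was given siRL, an siRNA against Renilla luciferase that mouse cells have no match for by design (control siRNA). The other group of 3 was given Dharmacon mimics of the mmu-miR-290 cluster. Each sample was read on 1 Affymetrix array. Whether the replicates were separate cultures is not stated, so p-values reflect only how far these arrays differ, and that may be technical.

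Annexins bind acidic phospholipids of membranes when calcium rises, through a conserved core of repeated helical domains, and each has its own amino-terminal tail through which it meets partner proteins. They serve in membrane repair, vesicle traffic, the link of membranes to the actin cortex and, when outside the cell, in the control of inflammation and clotting. Several are abundant in epithelia, endothelia and fibroblasts. MicroRNAs pair with messenger RNAs mainly through the seed, bases 2 to 8 from their 5′ end, and lower the amount or the translation of the message.

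The agent that differed between the groups was the set of cluster microRNAs, whose mature sequences are shown because the seed is the part through which a microRNA finds its targets. The RefSeq table for GRCm38.p6 held 13 mature sequences on the plus strand of the cluster, between chr7:3218639-3220837, 7 from the 5p arms and 6 from the 3p arms. The labels do not list which of them were given as mimics, and mmu-miR-292a-3p was not in the table. In 5 of the 3p arms bases 2 to 7 were AAGUGC, with the eighth base varying. Those 5 are written 5′ to 3′ with the seed in capitals.
mmu-miR-290a-3p: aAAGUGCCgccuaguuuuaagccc
mmu-miR-291a-3p: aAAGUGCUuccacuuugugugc
mmu-miR-291b-3p: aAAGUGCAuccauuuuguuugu
mmu-miR-294-3p: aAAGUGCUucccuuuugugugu
mmu-miR-295-3p: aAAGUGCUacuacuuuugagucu
The remaining 3p arm had another seed, and so had the 5p arms, of which that of miR-290a is shown.
mmu-miR-293-3p: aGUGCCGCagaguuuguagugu
mmu-miR-290a-5p: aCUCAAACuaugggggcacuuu
Of the 7 5p arms, 5 shared bases CUCAAA at positions 2 to 7 and 2 shared AUCAAA. Matches to these seeds in annexin messages were not analysed here.

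The deposited values are linear intensities, and the median per array lay between 41.7 and 44.9. On log2 values of the tested probe sets, correlations ran from 0.963 to 0.969 for arrays of a group and from 0.959 to 0.964 across groups, and none stood apart. The number of arrays limits the precision. Dicer1 itself read 1129 to 1177 in the control group and 1026 to 1143 with the mimics, which checks nothing, since the deficiency is common to every sample and the deleted part may not be what the probe set reads. Markers of undifferentiated cells were bright: 7 of 7 were above the filter. Their summed intensity was 96876 to 105621 after the control siRNA and 103550 to 108708 after the mimics. Among them Zfp42, Esrrb and Tdgf1 had every mimic array above every control array (log2 fold changes 0.12, 0.23 and 0.11), and the others overlapped. Of all tested probe sets 13.8% had the mimic arrays all above. A probe set was tested if its mean log2 intensity over the 6 arrays was at least 4, which 29167 probe sets and 13815 genes passed. A gene is described by its brightest probe set, and intensities of different probe sets are not set against each other, since each has its own affinity and no length scale. All samples are bulk RNA, in which fewer cells of a type and less RNA per cell cannot be told apart.

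Anxa1, Anxa2 and Anxa3 were each lower with the mimics by close to the same factor, 1.79-fold to 2.03-fold. Anxa4 was lower by less, Anxa5 by less again, Anxa6 was higher, and Anxa7 and Anxa8 had overlapping groups. Of the 20 annexin probe sets 16 passed the filter. Of these, 12 had a lower mean with the mimics and 4 a higher one, where 50.7% of all tested probe sets had a lower mean. The median log2 fold change of the 16 was -0.21, against -0.01 over all tested probe sets. In limma over all tested probe sets, at a Benjamini-Hochberg adjusted p under 0.05, 3 annexin probe sets were called lower and 0 higher, where 0.946% of all tested probe sets were called lower and 0.343% higher. The 3 were the bright probe sets of Anxa1, Anxa2 and Anxa3, and since they chose the family nothing is read from this count. At an unadjusted p under 0.05 in limma 6 were lower and 2 higher, beside 11.6% and 8.49% of all tested probe sets.

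**Figure D1:**
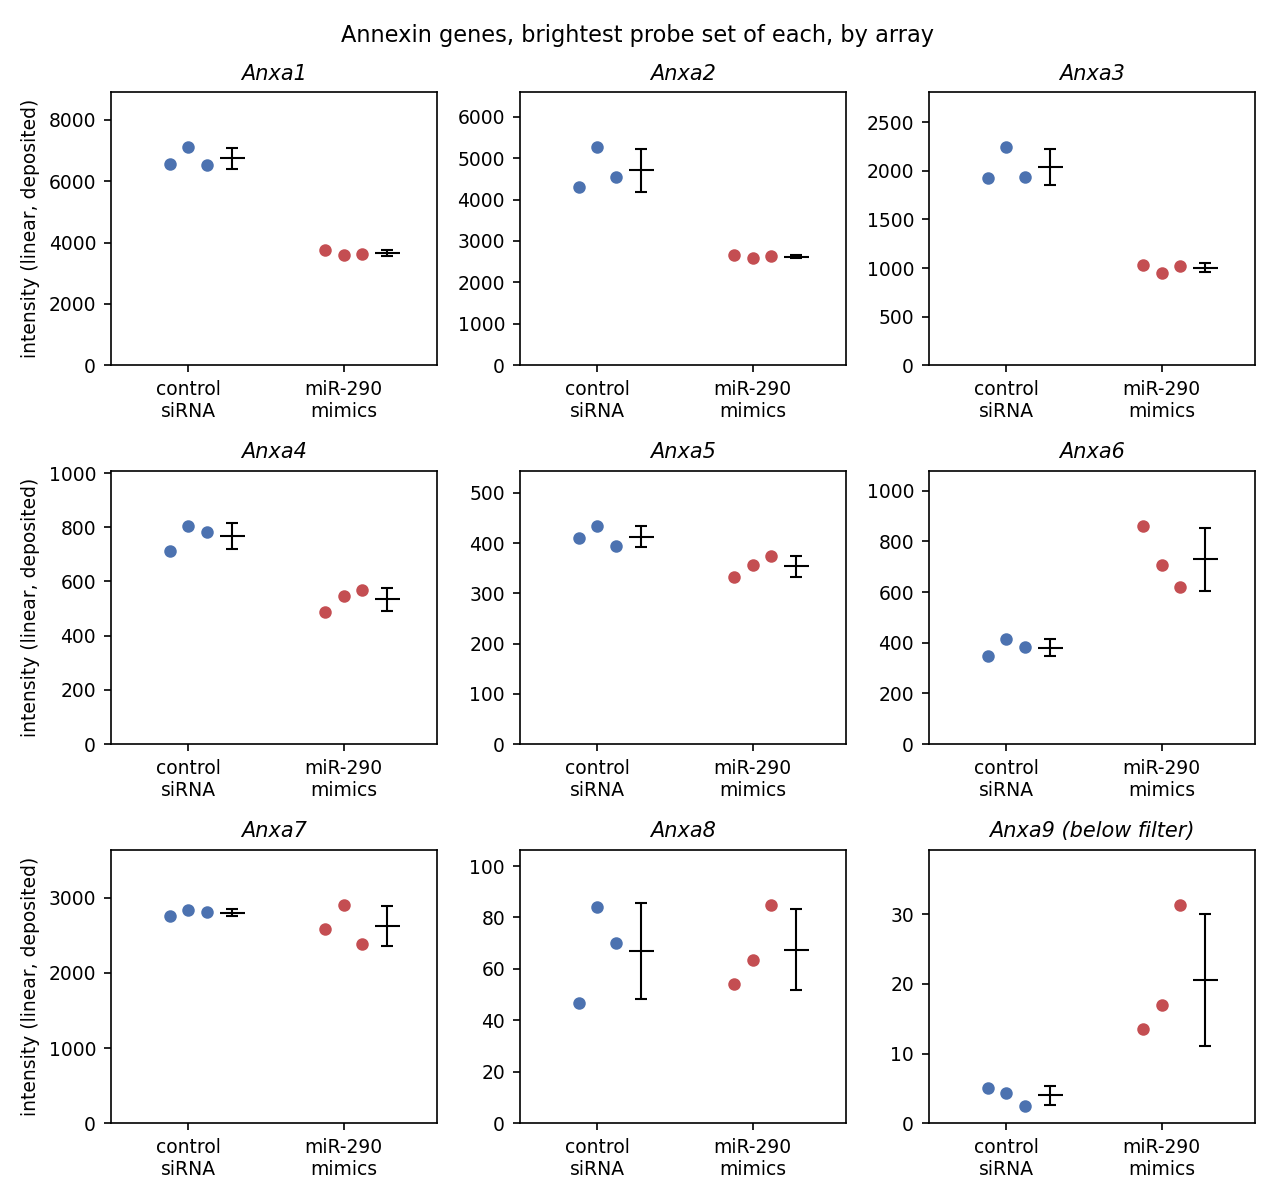
Deposited linear intensity (vertical axis, from 0, own scale in each panel) of the brightest probe set of 9 annexin genes on the 3 control siRNA arrays (blue) and the 3 miR-290 mimic arrays (red); the bar beside each group is its mean ± SD. The groups are apart for Anxa1 to Anxa5, with the mimics lower, and for Anxa6 and the dim Anxa9, with the mimics higher, and they overlap for Anxa7 and Anxa8.

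Anxa1 encodes a protein that dampens inflammation, acting outside the cell on formyl peptide receptors and inside it on cytosolic phospholipase A2. Its intensities were 6561, 7130 and 6541 after the control siRNA and 3756, 3581 and 3630 after the mimics. Each mimic array was below each control array, and the mimic arrays lay close together. The group means were 6744 ± 334 and 3656 ± 90.1 (SD, n = 3 each), 1.84-fold lower with the mimics (log2 fold change -0.88 ± 0.07 SE). A further Anxa1 probe set read between 0.909 and 8.92 on the 6 arrays and was below the filter, so the difference rests on 1 probe set.

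Anxa2 forms a complex with S100a10 at the cell surface, where it binds plasminogen and its activator, and beneath the membrane, where it binds actin. It read 4294, 5278 and 4534 after the control siRNA and 2651, 2578 and 2640 after the mimics. The groups did not overlap, and the control arrays were spread more widely than the mimic arrays. The means of 4702 ± 513 and 2623 ± 39.3 (SD, n = 3 each) differed 1.79-fold (log2 fold change -0.84 ± 0.10 SE). The other tested Anxa2 probe set was dim, read 82.6, 169 and 115 against 99.5, 101 and 154, and gave -0.02. With the mean of both tested probe sets in place of the brightest, the Anxa2 log2 fold change was -0.43. Another Anxa2 probe set was below the filter, at 1.24 to 18.3.

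Anxa3, a family member found in neutrophils and in several epithelia, had a single probe set. It read 1927, 2250 and 1942 after the control siRNA and 1033, 949 and 1023 after the mimics. No mimic array came near a control array. The means were 2040 ± 182 and 1002 ± 45.8 (SD, n = 3 each), a 2.03-fold difference (log2 fold change -1.02 ± 0.10 SE). Across these 3 genes control replicate 2 was the highest array each time, and mimic replicate 2 was the lowest.

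Anxa4, which assembles on the inner face of epithelial membranes, was measured by 3 probe sets that all went the same way. The brightest read 713, 806 and 781 after the control siRNA and 486, 548 and 568 after the mimics, means of 767 ± 48.2 and 534 ± 43.2 (SD, n = 3 each), and the log2 fold change was -0.52 ± 0.10 SE. The others gave -0.42 and -0.41, and in each of the 3 the highest mimic array was below the lowest control array. None of the 3 was called in limma with a constant prior. With a prior for the variance fitted to the intensity level, robustly to outlying probe sets (the level-dependent robust prior), the brighter 2 were called lower.

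Anxa5 binds phosphatidylserine that dying cells expose and is the protein of the common apoptosis stain. It read 409.9, 435 and 395 after the control siRNA and 332, 357 and 374 after the mimics. The groups did not overlap, but the gap was small. The means of 413 ± 20.1 and 354 ± 21.2 (SD, n = 3 each) gave a log2 fold change of -0.22 ± 0.08 SE, which was called under neither prior in limma.

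Anxa6, whose protein carries a duplicated core and binds cholesterol-rich late endosomes, differed the opposite way. Its brightest probe set read 347, 413 and 382 after the control siRNA and 862, 708 and 618 after the mimics. Every mimic array was above every control array, and here the mimic arrays were the more spread group. The means were 380.5 ± 33.2 and 729 ± 123 (SD, n = 3 each), with a log2 fold change of 0.93 ± 0.15 SE. The next probe set, at 92.8, 121 and 143 against 205, 241 and 187, gave 0.84 ± 0.19 SE, again with no overlap. Both were called higher in limma with the level-dependent robust prior and neither with the constant prior. Of the 2 dimmer Anxa6 probe sets, the brighter gave 1.93 with overlapping groups and the other was below the filter; with the mean of the tested probe sets the Anxa6 value was 1.23.

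Anxa7, known as synexin for its part in membrane fusion, read 2752, 2837 and 2816 after the control siRNA and 2581, 2909 and 2381 after the mimics. The mimic arrays lay on both sides of the control arrays. The log2 fold change was -0.10 ± 0.10 SE, and its other 2 probe sets gave -0.19 and -0.08 with overlapping groups. Anxa8 was dim, at 46.8, 83.9 and 70.0 against 54.0, 63.5 and 85.0 (0.03 ± 0.28 SE), and its other probe set gave -0.40 with overlapping groups. The sign of the Anxa8 value turned with the array left out, between -0.21 and 0.21.

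Anxa9, an unusual annexin whose calcium-binding residues are not conserved, was below the filter. It read 5.12, 4.34 and 2.47 after the control siRNA and 13.5, 17.0 and 31.4 after the mimics. The groups were apart, but 5 of the 6 readings were at or below 17.0, close to the intensity of 16 that matches the filter. Background was not measured here, so whether such readings are signal is not known, and no fold is given. The annexin genes outside the members were dim too. Anxa10 read 44.1, 15.7 and 50.7 against 53.5, 51.2 and 62.1 (limma adjusted p = 0.434), and Anxa13, below the filter, ranged from 1.47 to 26.3.

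Counted over probe sets, 7 of the 16 tested annexin probe sets had mimic arrays all below the control arrays, where 15.5% of all tested probe sets did, and 2 had them all above, where 13.8% did. With the level-dependent robust prior in limma, 5 annexin probe sets were called lower and 2 higher, beside 6.56% and 4.73% of all tested probe sets. These counts share the contrast that chose the family and are a description of it.

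**Figure D2:**
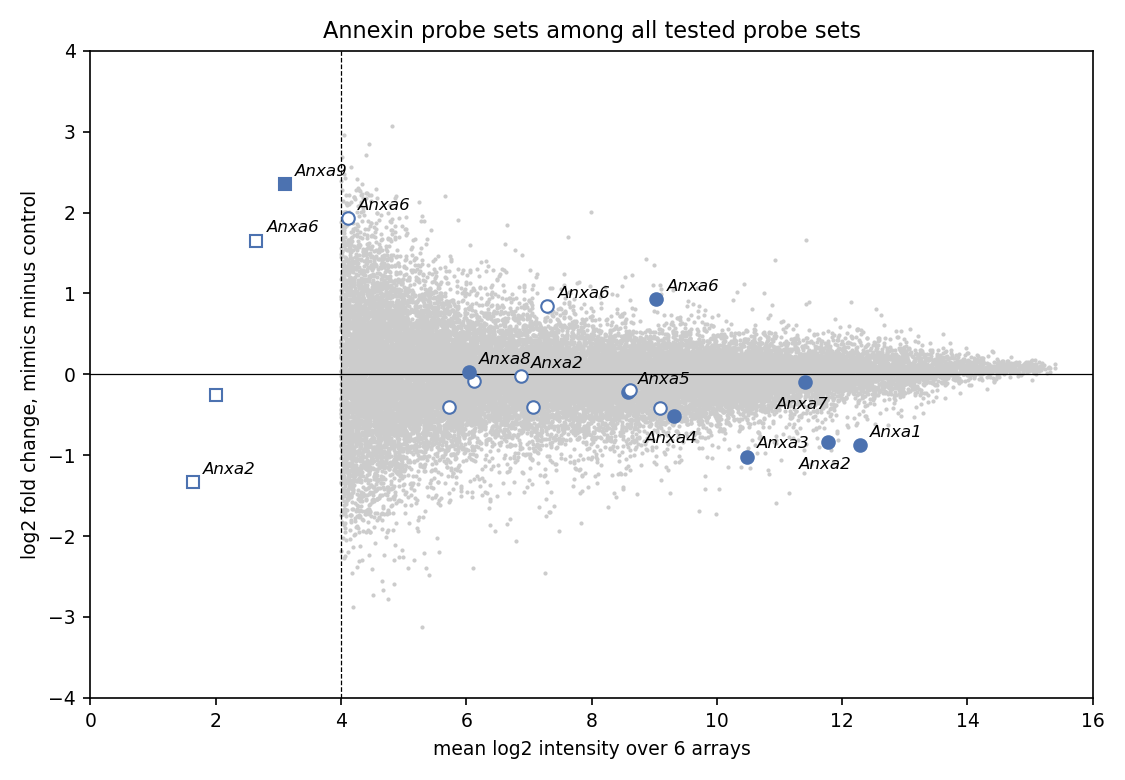
Log2 fold change, mimics minus control (vertical axis), against the mean log2 intensity over 6 arrays (horizontal axis) for all 29167 tested probe sets (grey) and the 20 annexin probe sets (blue; filled for the brightest of each gene, open for the others, squares for those below the filter at 4, the dashed line). The bright probe sets of Anxa1 (-0.88), Anxa2 (-0.84) and Anxa3 (-1.02) lie below 0 and those of Anxa6 (0.93 and 0.84) above it, while the dim probe sets lie where the cloud is wide. Their rank among probe sets of a like level was not computed.

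Values of the members moved little with the processing. Over 14 alternatives, of which 6 left out 1 array each, the log2 fold change stayed between -0.91 and -0.84 for Anxa1, between -1.06 and -0.95 for Anxa3, between -0.57 and -0.45 for Anxa4, between -0.26 and -0.15 for Anxa5 and between 0.80 and 1.23 for Anxa6. The other prior, both filters and the replicate block leave a fold change as it is by construction. That of Anxa2 stayed between -0.90 and -0.75 except where its probe sets were averaged. The calls were less stable than the values. In limma with a constant prior, 0 annexin probe sets were called once any 1 array was left out, with 5 or 6 lower and 2 or 3 higher at an unadjusted p under 0.05. In the same fits 0 of all 29167 probe sets were called lower and 0 to 1 higher, with 2533 to 3015 lower and 1880 to 2266 higher at an unadjusted p under 0.05. With median centring of the arrays the Anxa2 call ended, and those of Anxa1 and Anxa3 did not.

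**Figure D3:**
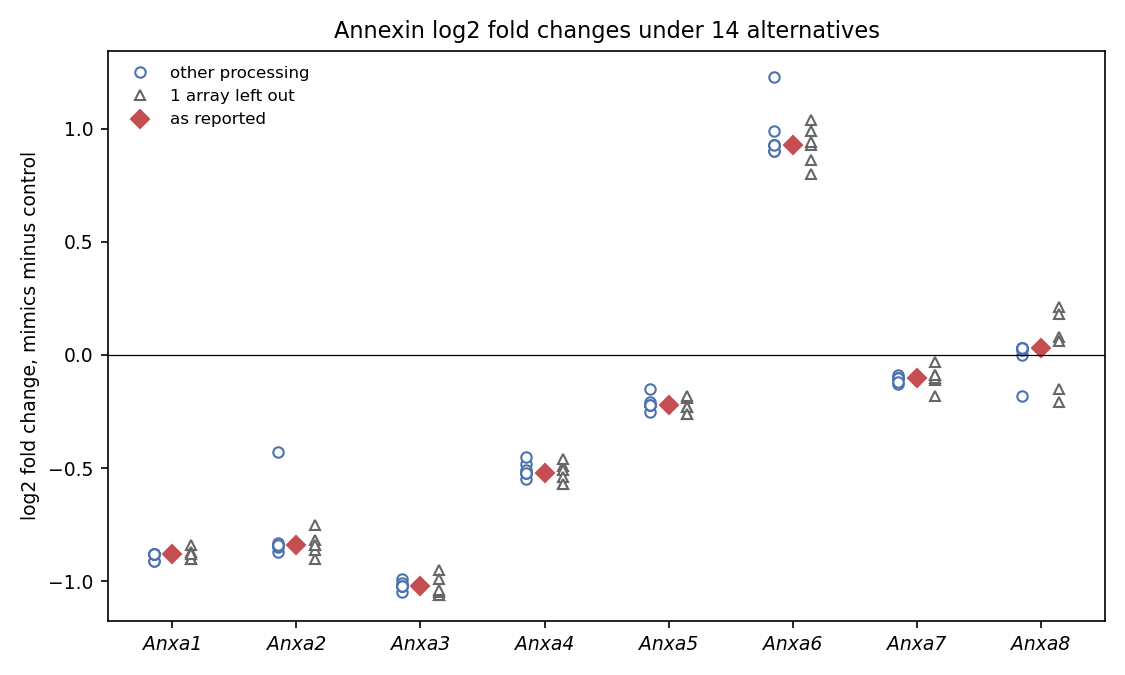
Log2 fold change, mimics minus control (vertical axis), of the 8 tested annexin genes as reported (red diamonds), under 8 other ways of processing (blue circles) and with 1 array left out (grey triangles). All values for Anxa1 to Anxa5 and Anxa7 are below 0 and all for Anxa6 above 0, those of Anxa8 fall on both sides, and the circle at -0.43 for Anxa2 is the mean of its probe sets.

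The promoters of Anxa1 and Anxa2 are shown because these genes were lower together; the RefSeq table for GRCm38.p6 held entries for 8 of the 10 genes and none for Anxa3 or Anxa6. Each line gives the 250 bases before the annotated start, 5′ to 3′ on the gene's strand, with the matches found in capitals. The letters searched on both strands were TATAAA for the TATA box and GGGCGG for the GC box. CCAAT and the AP-1 site TGAGTCA were searched as well, and no match overlapped another.
Anxa1, chr19:20390672-20390921, minus strand: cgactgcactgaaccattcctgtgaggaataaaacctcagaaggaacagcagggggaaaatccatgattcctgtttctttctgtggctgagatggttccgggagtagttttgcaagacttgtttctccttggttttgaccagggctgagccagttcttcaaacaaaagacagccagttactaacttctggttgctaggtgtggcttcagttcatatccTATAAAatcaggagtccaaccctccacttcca
Anxa2, chr9:69453433-69453682, plus strand: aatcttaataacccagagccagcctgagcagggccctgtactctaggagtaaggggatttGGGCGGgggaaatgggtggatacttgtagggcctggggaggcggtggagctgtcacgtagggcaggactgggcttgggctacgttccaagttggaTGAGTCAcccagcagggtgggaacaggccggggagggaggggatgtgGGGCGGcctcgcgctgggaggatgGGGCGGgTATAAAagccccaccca
TATAAA began 32 bases before the start of Anxa1 and 17 bases before that of Anxa2, and no entry of the 6 other genes held it; 12.4% of all 32851 promoter windows of this length did. Anxa2 also had GGGCGG at 3 places, which 32.7% of all windows held, and TGAGTCA at 95 bases before the start, which 4.46% held. Among the other members GGGCGG was found before Anxa7 and Anxa11. CCAAT was found in no annexin entry and in 33.8% of all windows. The G and C content was 46.0% for Anxa1 and 62.4% for Anxa2, with 2 and 9 CG pairs. These matches describe the letters of the windows and not binding.

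Partners of the annexins were taken from lists that did not use the annexin values, and their differences were tested in limma. The lists were drawn up with earlier results of these data known, so these p-values do not come from an independent choice of genes. Annexin tails bind small S100 calcium sensors: S100a10 binds Anxa2, and S100a6 binds several annexins. Of 15 S100 genes, 13 had a probe set with a single symbol, 7 passed the filter, and 0 were called lower or higher in limma with a constant prior, where 1.38% of all genes were called lower and 0.456% higher. At an unadjusted p under 0.05 in limma 4 were lower and 1 higher, beside 14.5% and 9.99% of all genes. The median log2 fold change was -0.22, against -0.01 over all tested genes.

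S100a10 read 9003, 8707 and 8205 after the control siRNA and 7819, 7405 and 7032 after the mimics. The groups did not overlap, yet the difference was small, -0.22 ± 0.08 SE on the log2 scale (limma adjusted p = 0.223), and another bright S100a10 probe set gave -0.07 with overlapping groups. S100a6 read 8610, 9720 and 9082 against 6238, 6907 and 6960. All 3 mimic arrays were lower, by 1.36-fold in the mean (-0.45 ± 0.09 SE), and the test was not passed (limma adjusted p = 0.0788). With the level-dependent robust prior S100a10 and S100a6 were both called lower in limma, at adjusted p-values of 0.0240 and 0.000787, as was the dim S100a4 (-1.29, adjusted p = 0.0245), while S100a16 was called higher (0.48, adjusted p = 0.0456); 9.43% of all genes were called lower and 6.20% higher by that test. S100a11, the partner of Anxa1, was not named singly by any probe set.

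Among genes whose products bind annexins or act with them in membrane repair, Capn2 fell and 0 rose. The list held 18 genes, of which 14 were tested, with a median of -0.32. Of the 14, 12 had a lower mean with the mimics, where 50.7% of all tested probe sets did (the share of genes was not computed). Of all genes 1.38% were called lower and 0.456% higher. At an unadjusted p under 0.05 in limma 5 of the 14 were lower and 0 higher, where 14.5% and 9.99% of all genes were. Capn2 encodes the catalytic subunit of a calpain, a calcium-activated protease that trims the cortex at membrane wounds. It read 840.3, 803 and 769.8 after the control siRNA and 429, 449 and 454 after the mimics. The 3 mimic arrays were all far below the control arrays, 1.81-fold in the mean (log2 fold change -0.86 ± 0.07 SE, limma adjusted p = 0.0287). The call ended when any 1 array was left out, with limma adjusted p-values from 0.112 to 0.136, while the value stayed between -0.89 and -0.82.

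Capns1, the regulatory subunit shared by the calpains, read 7981, 8222 and 8324 against 6476, 6229 and 6506, which is -0.35 ± 0.07 SE and did not pass (limma adjusted p = 0.0752). Sri, a calcium sensor that binds Anxa7, read 3353, 3496 and 3587 against 2530, 2375 and 2723 (-0.45 ± 0.08 SE, limma adjusted p = 0.0725). Ahnak, the giant scaffold protein that joins the complex of Anxa2 and S100a10, read 1601, 1342 and 1736 against 1234, 1216 and 1099 (-0.39 ± 0.12 SE, limma adjusted p = 0.171). The dimmer tested probe sets of Ahnak gave 0.03 and -1.04, each with overlapping groups. For the brightest probe set of each of these 3 genes the groups were apart. With the level-dependent robust prior these 3 and Capn2, 4 of the list's 14 tested genes, were called lower in limma and 0 higher. By that test 9.43% of all genes were called lower and 6.20% higher. Pdcd6, a calcium sensor that binds Anxa7 and Anxa11, had overlapping groups at 4555, 5000 and 4527 against 4919, 4890 and 4866 (0.06 ± 0.07 SE, limma adjusted p = 0.691).

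For the known downstream of Anxa1, the values were low. Pla2g4a, the cytosolic phospholipase A2, read 87.2, 48.0 and 103 against 61.0, 35.1 and 77.2 with overlapping groups (limma adjusted p = 0.587). Fpr2, a formyl peptide receptor, was below the filter, at 1.20 to 20.6 over the 6 arrays. On the plasminogen side of Anxa2, the activator gene Plat was dim, at 73.1, 87.5 and 95.2 against 65.4, 60.1 and 61.3 (limma adjusted p = 0.134), and Plg was below the filter.

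The copines, ferlins and extended synaptotagmins are other proteins that dock on membranes when calcium rises. Among 13 tested genes they gave 0 calls in either direction in limma with a constant prior. By that test 1.38% of all genes were called lower and 0.456% higher. At an unadjusted p under 0.05 in limma 2 of the 13 were lower and 1 higher, close to the 14.5% and 9.99% of all genes, and the median was -0.16. Cpne3, the copine gene with the highest level of the list's tested probe sets, read 2767, 2736 and 2937 against 2059, 1918 and 1836. The groups were well apart, at -0.54 ± 0.08 SE, and the test was not passed (limma adjusted p = 0.0550). The dimmer tested Cpne3 probe sets gave -0.27 without overlap and -0.22 with overlap (limma adjusted p = 0.252 and 0.525). With the mean of its probe sets Cpne3 was -0.34 (limma adjusted p = 0.113). Cpne5 read 1092, 1022 and 1310 against 1227, 1030 and 1083, with overlap (-0.03 ± 0.13 SE, limma adjusted p = 0.914). With the level-dependent robust prior in limma Cpne3 and Cpne1 (-0.35) were called lower and the dim Cpne9 (1.30) higher. Of all genes 9.43% were called lower and 6.20% higher with that prior.

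Phosphatidylserine, the lipid that Anxa5 recognises, is moved across the membrane by scramblases and flippases and read by clearance receptors. Of 15 tested genes of that group Plscr3 fell and 0 rose, and the median was -0.13. Of all genes 1.38% were called lower and 0.456% higher. At an unadjusted p under 0.05 in limma 3 of the 15 were lower and 0 higher, beside 14.5% and 9.99% of all genes. Plscr3, a member of the phospholipid scramblase family, read 594, 524 and 536 after the control siRNA and 292, 299 and 331 after the mimics (log2 fold change -0.84 ± 0.09 SE, limma adjusted p = 0.0390). All mimic arrays were below all control arrays; its other probe set gave -0.41 and was not called. The Plscr3 call was also lost without any 1 array, at limma adjusted p-values from 0.115 to 0.150, while the value stayed between -0.90 and -0.79. The brightest members, Mfge8, a bridge between phosphatidylserine and phagocytes, and Plscr1, had overlapping groups, with 0.18 ± 0.11 SE and -0.11 ± 0.12 SE (limma adjusted p = 0.412 and 0.643). Ano6, a calcium-activated scramblase, was called lower only with the level-dependent robust prior among the 2 limma tests (-0.59, adjusted p = 0.0145). With that prior 2 of the 15 were called lower and 0 higher, beside 9.43% and 6.20% of all genes.

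**Figure D4:**
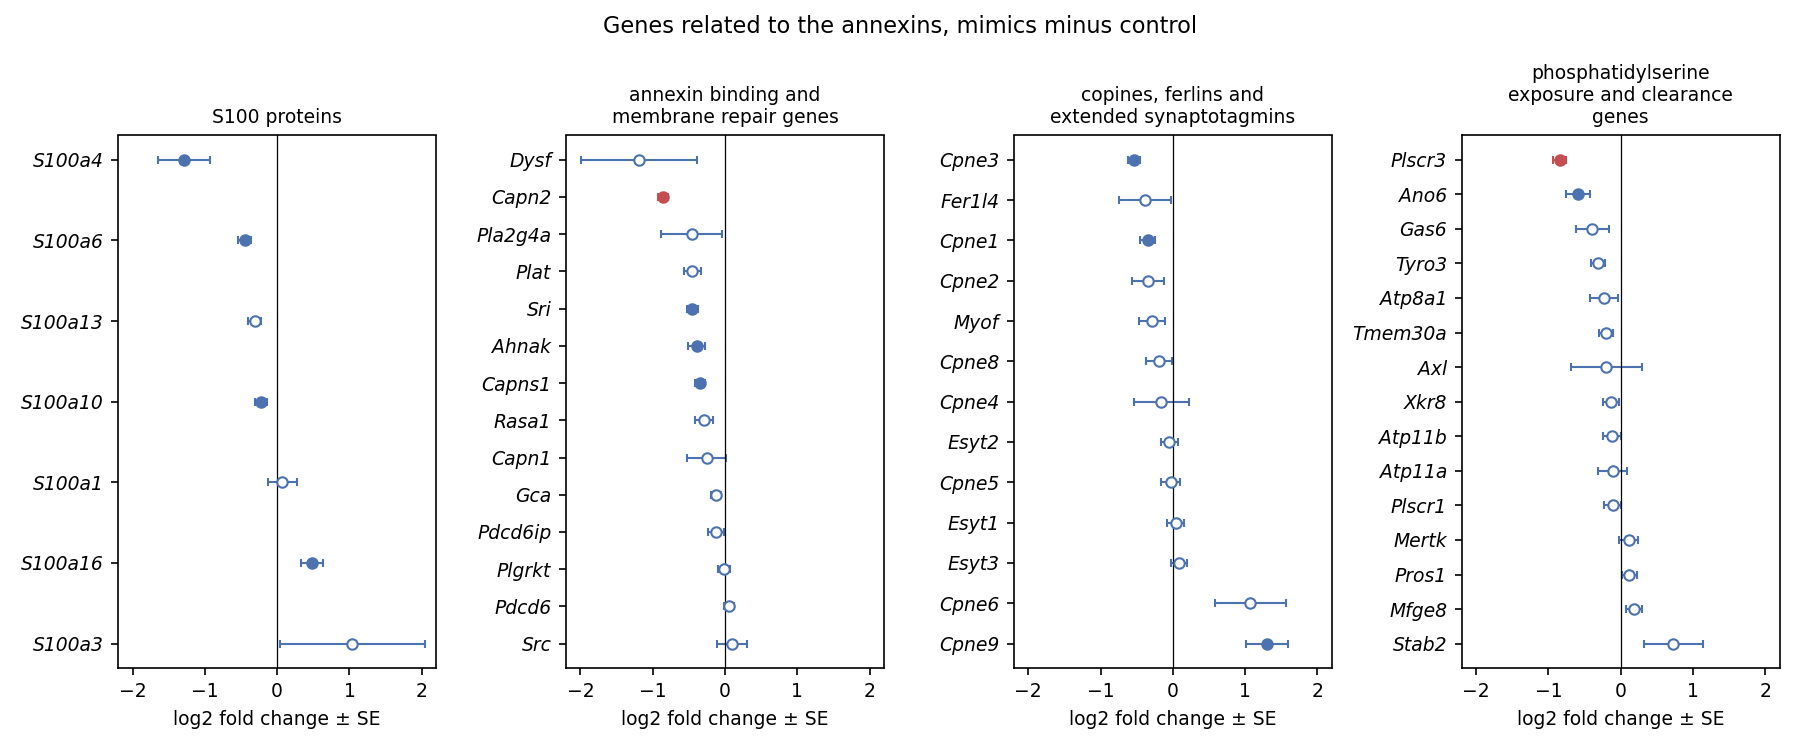
Log2 fold change, mimics minus control, ± SE (horizontal axis) of the tested genes of 4 lists related to the annexins; red marks a gene called in limma with a constant prior, filled blue a gene called only with the level-dependent robust prior, and open circles a gene called by neither. Capn2 (-0.86) and Plscr3 (-0.84) are the red points, and most of the other points lie between -0.5 and 0.

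Annexins are abundant in cells other than stem cells, so markers of such cells are given beside their values. Of 7 fibroblast markers 3 passed the filter and 4 did not (Col1a1, Col1a2, Col3a1 and Postn). The summed intensity of all 7, those below the filter included, was 317 to 352 with the control siRNA and 239 to 317 with the mimics. The brightest probe set weighs most in such a sum, so no sum given here measures the amount of a cell type. Dcn, a proteoglycan of fibroblasts, read 101, 78.8 and 69.4 against 54.6, 36.5 and 42.7, lower on every mimic array, and did not pass (limma adjusted p = 0.105). Thy1, the brightest of the list, read 158, 176 and 176 against 203, 195 and 153, with overlapping groups (0.10, limma adjusted p = 0.708). Lum, the other marker above the filter, overlapped as well, and of those below it Col3a1 and Postn had higher and Col1a1 and Col1a2 lower log2 means with the mimics. Primitive endoderm markers summed to 365 to 469.6 and 439.9 to 541, with 7 of 7 above the filter, and trophectoderm markers to 567 to 621 and 467 to 588, with 5 of 7 above it and Cdx2 and Elf5 below. In limma with a constant prior 0 markers of these 3 lists and 0 of those of undifferentiated cells were called. At an unadjusted p under 0.05 there were 1 fibroblast, 1 primitive endoderm, 0 trophectoderm and 1 undifferentiated cell marker, beside 20.1% of all tested probe sets. With the level-dependent robust prior Esrrb was called higher (0.23, limma adjusted p = 0.0158), as were 6.20% of all genes. The part of the marked cells in the annexin differences was not tested.

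Among the other 13807 tested genes, the 5 whose log2 values over the 6 arrays were most like the mean of Anxa1, Anxa2 and Anxa3 were Krt18 (Pearson r = 0.9989), Il6st (0.9987), Gbp2b (0.9980), Kbtbd11 (0.9977) and Wnt9a (0.9972). The 6 points are 2 groups of 3 arrays, so this likeness mostly restates the difference between the groups. Krt18, a keratin of simple epithelia, read 2001, 2163 and 2047 against 1374, 1348 and 1365. Il6st, the signalling receptor shared by interleukin-6 and leukaemia inhibitory factor, read 1900, 2058 and 1898 against 1468, 1448 and 1452. In both, as in Anxa1 to Anxa3, control replicate 2 was the highest array and the mimic arrays lay close together. Both were picked for likeness over these same 6 arrays, so that order and spread come with the choice.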

How the data were processed

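RNA from 6 samples was hybridised to 1 Affymetrix array each, per the labels, and groups and replicate numbers came from the sample titles. The authors deposited linear intensities of 45101 probe sets. GCRMA appears in the submitters' processing notes, but it commonly gives log2 values. The deposited intensities run from 0.057 to 46765 and, with 2% trimmed from each end, average 500 on every array, so which tool made them is not settled, and background correction and detection calls were not analysed here. Values were log2-transformed with no offset and not normalized again. Genes were named through the platform annotation; 932 probe sets with several symbols and 9211 without a symbol were left unnamed. No genome build is given for the array.

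After 64 control probe sets and 15870 with a mean log2 under 4 were left out, limma 3.58.1 (R 4.3.3; lmFit, eBayes, constant prior, 2-sided, Benjamini-Hochberg, threshold 0.05) was run on 29167 probe sets and tested on simulated data. The simulation gave every probe set the same SD, so it could not check the test where the spread depends on the intensity level. Group means and SDs are of linear intensities, folds of log2 means. The members and lists were chosen with earlier results of these data known. The text names every annexin, 4 annexin partners (S100a10, S100a11, S100a6 and Ahnak), up to 4 called genes of each list or else its brightest 2, and the 5 genes most like Anxa1 to Anxa3. S100a4, S100a16, Sri, Cpne1, Cpne9, Ano6, Pla2g4a, Fpr2, Plat, Plg, Dcn, Thy1, Lum, Zfp42, Esrrb and Tdgf1 were added after their values were seen. Alternatives were another prior, 2 normalizations, 2 filters, an offset of 16, the mean of probe sets, the replicate number as a block and each array left out.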

Additional observations from a re-analysis of the deposited data

How the results depend on the processing

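The annexin log2 fold changes kept their sign under all 14 alternatives except for Anxa8, and 2 moved by more than the spread between replicates: with the mean of probe sets Anxa2 was -0.43 and Anxa6 1.23. Counts of calls in limma depended on the setting. Over all probe sets, lower and higher, there were 276 and 100 as reported, 1914 and 1379 with the level-dependent robust prior, 1522 and 851 with a filter at a mean log2 of 6, 442 and 186 with an offset of 16, 170 and 37 with median centring, and 0 and 0 with no filter (3152 and 2493 at an unadjusted p under 0.05). Annexin probe sets went from 3 lower and 0 higher to 5 and 2 with the level-dependent robust prior or the filter at 6, to 1 higher with the offset of 16, to 2 lower with median centring (without Anxa2), and to 0 lower with no filter (5 at an unadjusted p under 0.05). With the level-dependent robust prior the S100 list had 3 lower and 1 higher and the annexin binding and repair list 4 lower. The copine list then had 2 lower and 1 higher and the phosphatidylserine list 2 lower. Of all genes 9.43% were called lower and 6.20% higher with that prior. The filter at 6 gave 1 lower S100 gene, 3 lower binding and repair genes and 1 lower and 1 higher copine list gene. An offset of 16 gave 1 lower copine list gene, and the mean of probe sets 2 lower binding and repair genes. For these settings the share of all genes called was not computed, so nothing is read from these counts. With no filter the binding and repair list and the phosphatidylserine list had 0 lower. The causes were not tested.

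Without 1 array, 0 probe sets were called lower and 0 to 1 higher (the 1 without control replicate 3), with 2533 to 3015 lower and 1880 to 2266 higher at an unadjusted p under 0.05, and 0 annexin, 0 binding and repair and 0 phosphatidylserine genes were called lower. Deviations of same-numbered arrays from their group means were little correlated over the tested probe sets (-0.006, 0.012 and 0.024). Whether the numbers pair the samples is not stated, and these correlations cannot settle it. With the replicate number as a block 0 probe sets were called in either direction, 0 annexins among them. At an unadjusted p under 0.05 in that limma fit 2994 were lower and 2195 higher, with 5 lower and 2 higher annexins. With the block 0 genes of the binding and repair and phosphatidylserine lists were called. Whether readings near 16 or below, or those somewhat above, exceed background was not analysed here. This limits Anxa9, Anxa13 and the dim probe sets of Anxa1, Anxa2 and Anxa6.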
